A study of Mus musculus with 5 samples.

Results

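The 28 genes described here encode enzymes of cholesterol synthesis, the SREBP system that controls them, a sterol carrier and enzymes of fatty acid synthesis. They were chosen by gene symbol, and all 28 were found among the 34970 symbols of the count table. RNA sequencing was done on 5 mouse libraries, 1 each from cells labelled wild type; strain, age and sex are not stated. MCC stands for a complex of myeloid-like cells, from a series titled as direct reprogramming of fibroblasts to macrophages. iPSC are induced pluripotent stem cells and MEF are mouse embryonic fibroblasts. PB are blood cells, which the design text gives as CD45+ cells, and BM is bone marrow. How the MCC and iPSC cells were made, and whether animals were pooled, is not stated in the labels. With 1 library per group there is no spread between replicates, so no p-value is given and every difference is one between these libraries.

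Cells build cholesterol from acetyl-CoA. The first enzymes make mevalonate and its isoprenoid products, squalene is then formed and closed into lanosterol, and a last set of enzymes trims lanosterol to cholesterol. The genes are switched on by SREBP transcription factors, which are held in the endoplasmic reticulum as a complex with the escort protein SCAP. When sterols are plentiful INSIG proteins keep SCAP there. When sterols are scarce the complex moves to the Golgi, where SREBP is cut and released. SREBP2, from Srebf2, acts mainly on cholesterol genes, and SREBP1, from Srebf1, more on fatty acid genes. Macrophages and fibroblasts both can make cholesterol, and macrophages also take it up and export it.

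Total counts ranged from 30078366 in PB to 47557598 in MCC. Reads per member ranged from 29 (Fdps in PB) to 74636 (Scd2 in MEF). Levels are CPM, reads per 1000000 reads of a TMM-scaled library, and intervals are exact 95% intervals that cover counting error only. The labels were checked against marker genes. All 9 macrophage genes reached 5 CPM in MCC, 1 did so in iPSC, 0 in MEF, 5 in PB and 9 in BM. All 4 pan-leukocyte genes did so in MCC, PB and BM. All 8 fibroblast genes did so in MCC and in MEF, 5 in iPSC, 1 in PB and 4 in BM, with summed levels of 27970 CPM in MCC and 18853 CPM in MEF. Hepatocyte genes stayed below 5 CPM in every library. All 6 pluripotency genes reached that level in iPSC and 0 in the other libraries. Neutrophil, erythroid, B cell and T cell genes reached 5 CPM in PB and BM, 18 of 19 in PB and 17 of 19 in BM, and 0 in MCC, iPSC and MEF. MCC thus held macrophage and fibroblast transcripts together. In such bulk samples fewer cells of a type and less RNA per cell cannot be told apart. The code that labels the PB library lies far from the codes of the other 4, so differences that involve PB cannot be told apart from a difference between library sets.

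Cholesterol genes were highest in fibroblasts, intermediate in MCC and iPSC, and low in blood and marrow. Of the 28 members 5 had their highest level in MCC, 1 in iPSC, 22 in MEF and 0 in PB or BM. Over the 13998 genes that reached 5 CPM in a library, 21.1% were highest in MCC, 19.4% in iPSC, 18.4% in MEF, 22.6% in PB and 18.4% in BM. The lowest level was in PB for 19 members and in BM for 6. Among all genes without ties 37.6% were lowest in PB and 14.5% in BM. The 18 enzymes of cholesterol synthesis summed to 1188 CPM in MCC, 700.4 CPM in iPSC, 2282 CPM in MEF, 253 CPM in PB and 345 CPM in BM. These sums were 0.108% of all reads in MCC, 0.0836% in iPSC, 0.212% in MEF, 0.0251% in PB and 0.0344% in BM. MCC, iPSC and MEF all stood above both PB and BM for 18 of the 28 members, against 32.2% of all genes. MCC lay below MEF and above BM for 22 members, against 24.7% of all genes, and below MEF and above PB for 21, against 28.6%. The regulators varied least: highest over lowest was a median of 2.27-fold for the SREBP system, 12.3-fold for the mevalonate enzymes and 10.4-fold for the sterol enzymes.

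**Figure D1:**
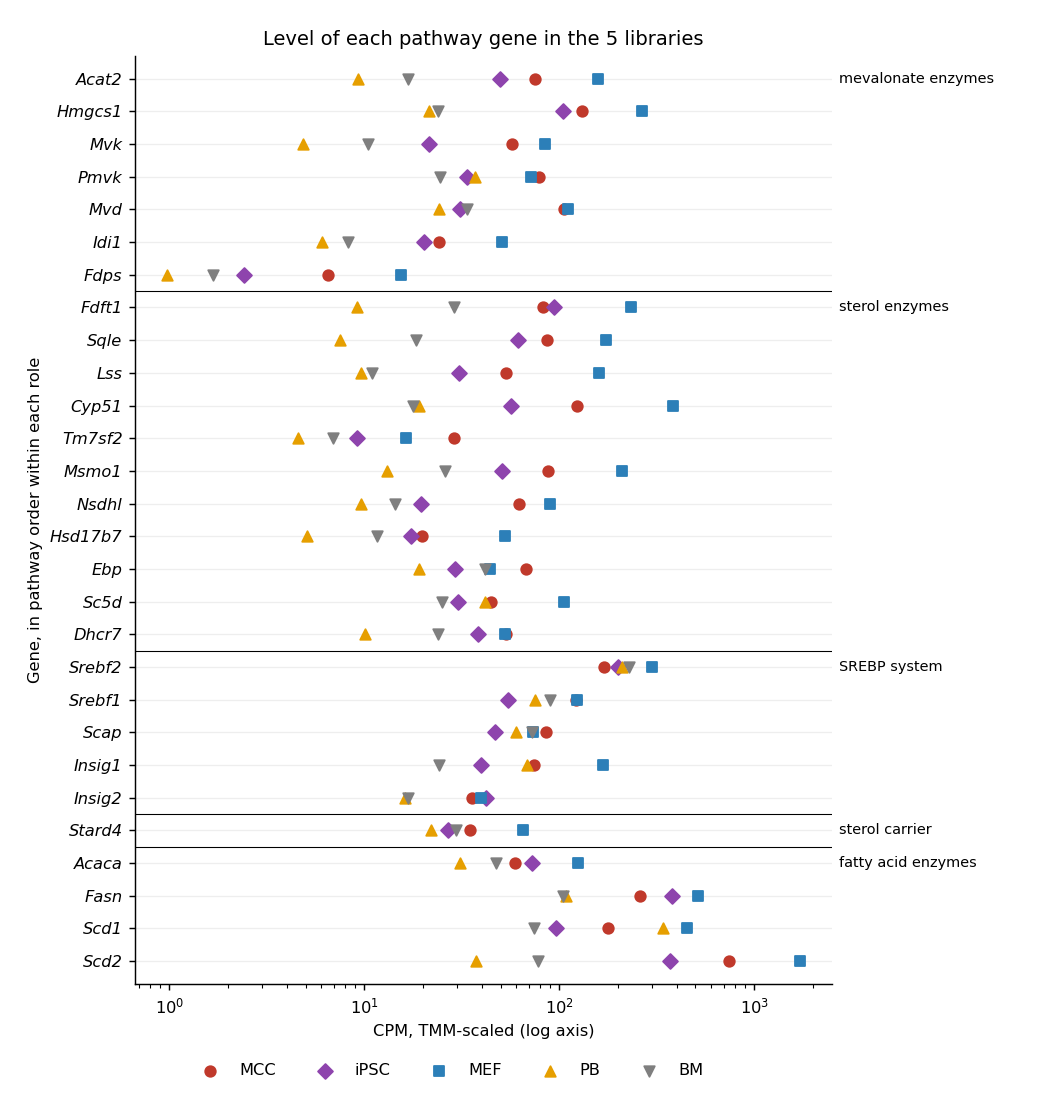
Level of each of the 28 genes (rows, grouped by role) in the 5 libraries, as TMM-scaled CPM on a log axis, 1 point per library. MEF is the rightmost point for 22 genes, and PB is the leftmost for 19.

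Promoter windows from RefSeq (GRCm38.p6, 250 bases before to 50 after an annotated start) were matched by symbol for 22 members. Fdps, Fdft1, Sqle, Stard4, Scd1 and Scd2 had no entry and are named only. The motifs CCAAT (bound by NF-Y), GGGCGG (Sp1), CACGTG (an E-box) and TCACNCCAC (like a sterol regulatory element) were searched on both strands, and a match is a description of letters, not of binding. CCAAT was found for 19 of 22 members, against 41.1% of the 27025 genes with a window and 42.9% of the 10411 that also reached 5 CPM. GGGCGG was likewise found for 19 of 22, against 38.2% and 67.6%. CACGTG was found for 5, against 8.09% and 11.6%. TCACNCCAC was found for 1, Hmgcs1, against 1.44% and 1.34%, and that window also held CCAAT. A window with both TCACNCCAC and CCAAT was found for 0.529% of the 27025 genes. The bases before the start are shown for Hmgcs1, as the one member with TCACNCCAC, and for 4 genes with different level patterns. These are Mvd, nearly equal in MCC and MEF, Ebp, highest in MCC, Insig2, highest in iPSC, and Fasn, for fatty acid synthesis. For Insig2, iPSC and MEF were within counting error. Insig2 also has windows at other starts, which held 0 CCAAT matches. Stretches over annotated exons were left out. Capitals mark CCAAT or its reverse complement ATTGG and, in Hmgcs1, the TCACNCCAC match at bases -137 to -129 from the start. In Fasn a CCAAT and an ATTGG overlap.
Hmgcs1 (chr13:119690101-119690350, plus strand): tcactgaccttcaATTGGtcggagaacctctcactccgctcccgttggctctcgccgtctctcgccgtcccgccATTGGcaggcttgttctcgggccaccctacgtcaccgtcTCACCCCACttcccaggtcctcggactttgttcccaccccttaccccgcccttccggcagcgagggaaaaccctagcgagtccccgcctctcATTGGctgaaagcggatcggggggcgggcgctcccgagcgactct
Mvd (chr8:122443423-122443672, minus strand): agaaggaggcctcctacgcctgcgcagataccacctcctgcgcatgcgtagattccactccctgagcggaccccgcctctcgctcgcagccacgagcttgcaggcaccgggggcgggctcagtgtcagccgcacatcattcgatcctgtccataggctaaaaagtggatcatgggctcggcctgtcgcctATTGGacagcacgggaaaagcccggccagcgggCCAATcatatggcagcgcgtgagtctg
Ebp (chrX:8193513-8193762, minus strand): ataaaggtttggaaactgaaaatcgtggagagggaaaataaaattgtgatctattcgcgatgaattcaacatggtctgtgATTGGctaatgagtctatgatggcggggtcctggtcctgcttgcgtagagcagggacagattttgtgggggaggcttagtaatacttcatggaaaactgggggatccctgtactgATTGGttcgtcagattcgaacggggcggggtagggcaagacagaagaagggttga
Insig2 (chr1:121332590-121332839, minus strand): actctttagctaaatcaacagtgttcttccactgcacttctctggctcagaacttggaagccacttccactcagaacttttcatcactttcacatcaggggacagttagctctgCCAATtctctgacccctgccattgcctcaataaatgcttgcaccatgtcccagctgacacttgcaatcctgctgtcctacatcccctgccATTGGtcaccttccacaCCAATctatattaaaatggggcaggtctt
Fasn (chr11:120824548-120824797, minus strand): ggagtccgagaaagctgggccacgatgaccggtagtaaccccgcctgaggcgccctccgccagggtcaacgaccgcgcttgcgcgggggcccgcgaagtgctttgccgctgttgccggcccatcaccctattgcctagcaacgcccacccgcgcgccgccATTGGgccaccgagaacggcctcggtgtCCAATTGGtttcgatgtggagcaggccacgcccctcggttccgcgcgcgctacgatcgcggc

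**Figure D2:**
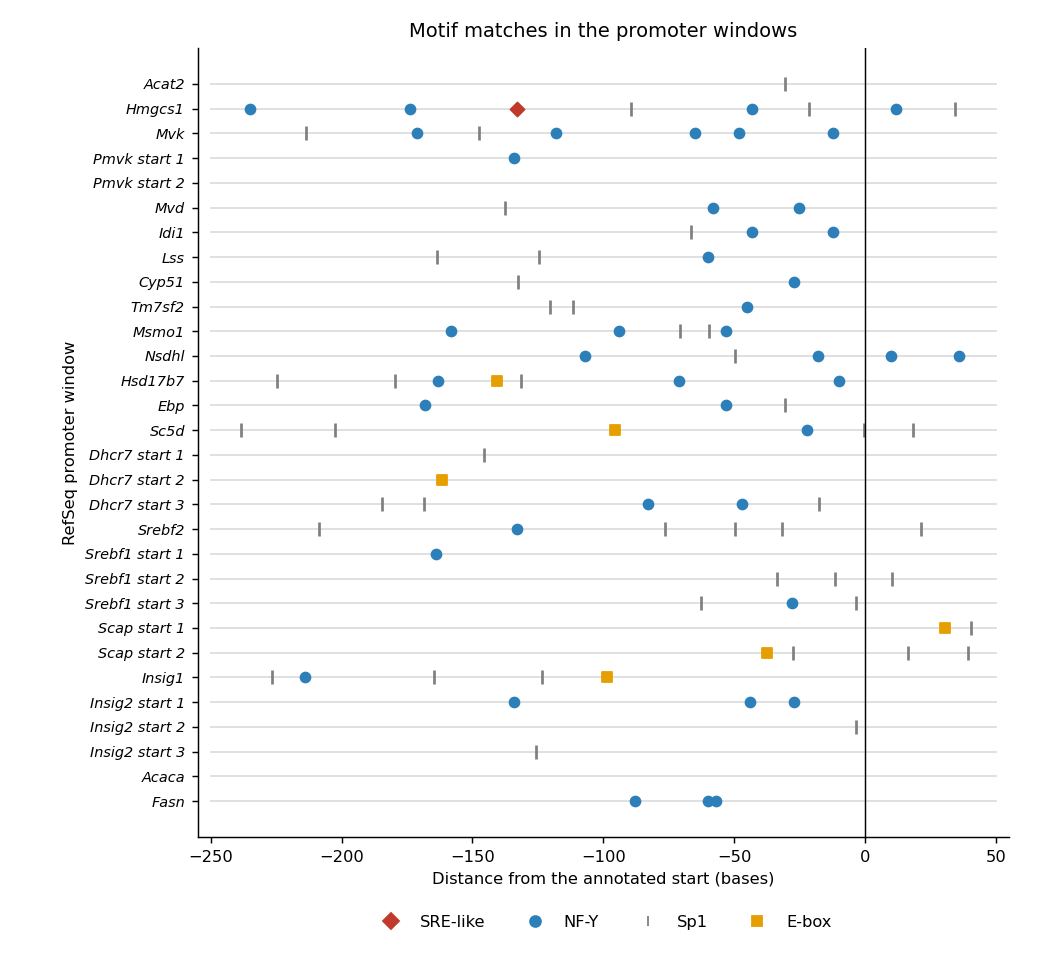
Matches to the 4 motifs (symbols) along each RefSeq promoter window of the members (rows), by distance in bases from the annotated start, which is the vertical line. CCAAT (NF-Y) matches appear for 19 of 22 genes and the SRE-like match for Hmgcs1 alone.

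In the mevalonate arm most enzymes stood between MEF and the blood libraries in MCC. Acat2, a thiolase that joins acetyl-CoA units, was at 74.8 CPM in MCC, 49.4 in iPSC, 158 in MEF, 9.31 in PB and 16.7 in BM. Hmgcs1, the cytosolic HMG-CoA synthase (mm10 chromosome 13, 119690379 to 119708260), was at 130.3 CPM in MCC, 105 in iPSC, 265 in MEF, 21.5 in PB and 24.01 in BM. In both genes MEF was the highest library, MCC and iPSC came next and the native blood libraries were far lower. Idi1, the isomerase of the isoprenoid unit, kept that order, with 24.2 CPM in MCC, 20.3 in iPSC, 51.1 in MEF, 6.06 in PB and 8.25 in BM. Mvk, mevalonate kinase, had 57.1 CPM in MCC, 21.4 in iPSC, 84.8 in MEF, 4.82 in PB and 10.5 in BM. Its level in MCC was thus nearer to MEF than to iPSC. The next enzymes, Pmvk (phosphomevalonate kinase) and Mvd (which removes a carboxyl group from mevalonate diphosphate), were about level in MCC and MEF. Pmvk had 78.5 CPM in MCC, 33.8 in iPSC, 72.0 in MEF, 37.2 in PB and 24.6 in BM. Mvd had 106 CPM in MCC, 31.1 in iPSC, 111 in MEF, 24.3 in PB and 33.5 in BM. For these genes MCC and MEF stood apart from the other 3 libraries. Fdps, which makes farnesyl diphosphate, was the lowest of the 18 enzymes per length of exon in every library, with a level of 6.55 CPM in MCC, 2.41 in iPSC, 15.4 in MEF, 0.971 in PB and 1.67 in BM. Its count is uncertain: 26.7% of its exon bases lie in exons of Gm43738 on the same strand, and 26.2% of its 50-base words occur in transcripts of other genes.

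The sterol arm followed the same order for most steps. Fdft1, squalene synthase, had 82.6 CPM in MCC, 94.0 in iPSC, 233 in MEF, 9.21 in PB and 29.0 in BM. Sqle, squalene epoxidase (mm10 chromosome 15, 59315077 to 59331192), had 87.05 CPM in MCC, 61.4 in iPSC, 174 in MEF, 7.53 in PB and 18.3 in BM. Lss, which closes the ring of lanosterol, had 53.3 CPM in MCC, 30.7 in iPSC, 159.9 in MEF, 9.64 in PB and 10.9 in BM, and its PB and BM levels did not differ beyond counting error. Cyp51, the lanosterol demethylase (mm10 chromosome 5, 4081145 to 4104746), spread widely, with 124 CPM in MCC, 56.2 in iPSC, 385 in MEF, 19.05 in PB and 17.8 in BM, where PB and BM did not differ beyond counting error. All 4 genes were at least 2-fold higher in MEF than in any other library. Msmo1, a methylsterol oxidase, had 87.3 CPM in MCC, 51.0 in iPSC, 211 in MEF, 13.1 in PB and 25.9 in BM. Nsdhl, the sterol dehydrogenase that acts with it, had 62.2 CPM in MCC, 19.6 in iPSC, 89.2 in MEF, 9.61 in PB and 14.4 in BM. Hsd17b7, the ketone reductase of the same complex, had 19.8 CPM in MCC, 17.3 in iPSC, 52.7 in MEF, 5.09 in PB and 11.6 in BM. MCC stood second to MEF for these 3 genes, closest to it for Nsdhl.

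The last steps of the sterol arm differed from that order. Ebp, a sterol isomerase, was highest in MCC, at 67.3 CPM in MCC, 29.3 in iPSC, 44.1 in MEF, 19.1 in PB and 41.6 in BM, where MEF and BM did not differ beyond counting error. Sc5d, a sterol desaturase, had 44.5 CPM in MCC, 30.1 in iPSC, 106 in MEF, 41.5 in PB and 25.1 in BM. Blood was therefore not low for Sc5d, and MCC and PB were within counting error. Dhcr7, which makes cholesterol from its last precursor, had 53.4 CPM in MCC, 38.1 in iPSC, 52.4 in MEF, 10.1 in PB and 23.9 in BM, with MCC and MEF within counting error. Per length of exon, the enzymes of a library also differed among themselves. That length sums all annotated exons, such as 1859 bases for Mvd and 10787 for Lss, so the ranking also depends on the annotation. In MEF, Cyp51 had 87.3 CPM per kb and Dhcr7 9.01 CPM per kb, and in MCC the same genes had 28.1 and 9.19 CPM per kb. The highest cholesterol enzyme per length was Mvd in MCC, at 57.0 CPM per kb, Hmgcs1 in iPSC, at 22.9, Cyp51 in MEF, at 87.3, and Pmvk in PB, at 21.7. In BM, Ebp and Mvd shared that place, at 18.003 and 17.999 CPM per kb.

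**Figure D3:**
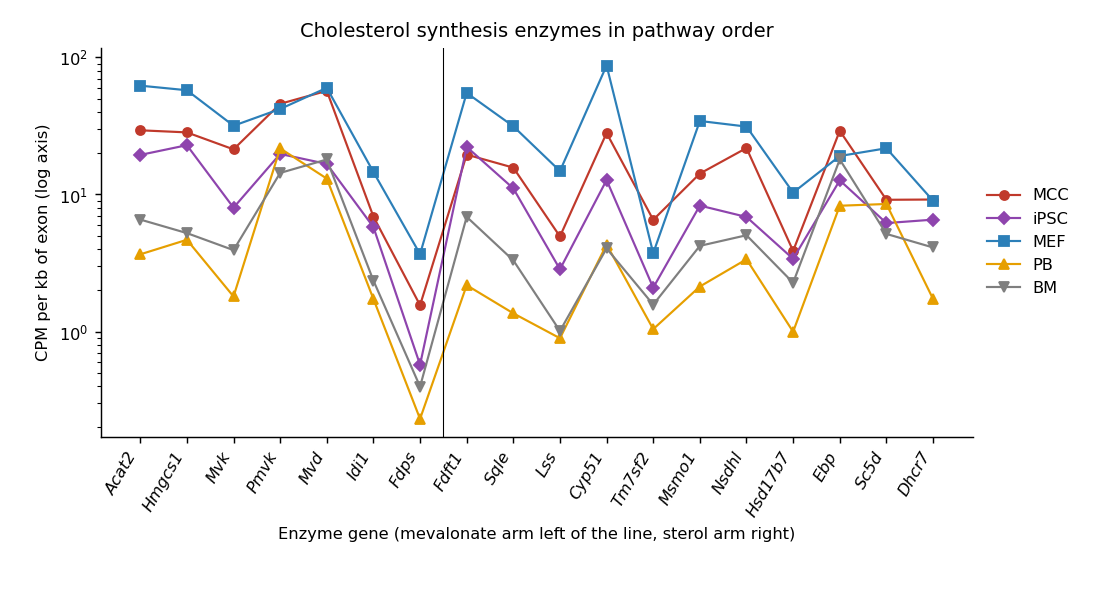
CPM per kb of exon (log axis) for the 18 cholesterol synthesis enzymes in pathway order, with 1 line per library. The MEF line is at the top for 14 of the 18 enzymes, while MCC is above it at Pmvk, Tm7sf2, Ebp and Dhcr7.

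Sterol reduction after the lanosterol step can be done by the product of Tm7sf2 or of Lbr, a related protein of the nuclear envelope, and the order of the libraries differed between these genes. Tm7sf2 (mm10 chromosome 19, 6062821 to 6068373) had 28.8 CPM in MCC, 9.20 in iPSC, 16.4 in MEF, 4.59 in PB and 6.92 in BM. Lbr, which is not a member, had 17.9 CPM in MCC, 145 in iPSC, 33.3 in MEF, 244 in PB and 497 in BM. MCC held the most Tm7sf2 and the least Lbr. The lengths used, 4403 bases for Tm7sf2 and 4761 for Lbr, sum all annotated exons. The intervals do not cover that choice, and other lengths were not tested. Per such length Tm7sf2 was 1.74-fold (1.59 to 1.91) of Lbr in MCC, the one library where it was the higher of the pair. Lbr was 14.5-fold (13.3 to 15.99) above Tm7sf2 per length in iPSC, 1.87-fold (1.71 to 2.05) in MEF, 49.3-fold (41.6 to 58.8) in PB and 66.4-fold (59.1 to 75.0) in BM. Of the exon bases of Tm7sf2, 12.1% lie in exons of Vps51 on the same strand, whose level was 41.8 in MCC against 26.1 in MEF (CPM).

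The genes of the SREBP system itself differed less between libraries, Insig1 apart. Srebf2 was lowest in MCC, with 170.1 CPM in MCC, 199 in iPSC, 298 in MEF, 211 in PB and 228 in BM. Blood and marrow therefore held more Srebf2 transcript than MCC, although the summed enzymes in MCC were 4.703-fold those of PB and 3.45-fold those of BM. Srebf1 had 122 CPM in MCC, 54.5 in iPSC, 124 in MEF, 74.9 in PB and 89.2 in BM, with MCC and MEF within counting error. Per length of exon, Srebf1 was 0.912 (0.880 to 0.945) of Srebf2 in MCC, 0.348 (0.334 to 0.363) in iPSC, 0.529 (0.513 to 0.547) in MEF, 0.453 (0.432 to 0.476) in PB and 0.499 (0.480 to 0.519) in BM. MCC was thus the library where the SREBP genes were nearest to each other. Counts per gene do not separate the start sites of Srebf1, which has 3 windows in the promoter table. Scap, the escort gene, had 85.1 CPM in MCC, 46.6 in iPSC, 73.4 in MEF, 60.03 in PB and 72.4 in BM.

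The INSIG genes behaved differently from each other. Insig1, which retains SCAP and is itself an SREBP target (mm10 chromosome 5, 28071363 to 28078662), had 74.5 CPM in MCC, 39.9 in iPSC, 168 in MEF, 68.5 in PB and 24.3 in BM. In PB it stood near MCC, unlike most enzymes. Insig2, which has the same role, had 35.8 CPM in MCC, 42.2 in iPSC, 39.7 in MEF, 16.1 in PB and 16.7 in BM. Its level was flat across MCC, iPSC and MEF, where iPSC and MEF did not differ beyond counting error. Per length of exon, Insig1 was 2.34-fold (2.20 to 2.49) of Insig2 in MCC, 1.06-fold in iPSC, 4.76-fold (4.52 to 5.02) in MEF, 4.78-fold (4.32 to 5.29) in PB and 1.63-fold (1.48 to 1.80) in BM. Stard4, a soluble carrier that moves cholesterol between membranes, had 35.1 CPM in MCC, 26.9 in iPSC, 65.0 in MEF, 21.9 in PB and 29.7 in BM.

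All 4 fatty acid enzymes were highest in MEF, and Scd1 alone of them was high in PB. Acaca, acetyl-CoA carboxylase, had 59.6 CPM in MCC, 72.3 in iPSC, 124 in MEF, 31.1 in PB and 47.3 in BM. Fasn, fatty acid synthase (mm10 chromosome 11, 120805846 to 120824547), had 261 CPM in MCC, 379.97 in iPSC, 518 in MEF, 108 in PB and 104 in BM. In both genes iPSC was above MCC. The stearoyl-CoA desaturase genes, which add a double bond to saturated fatty acids, lie near each other on mm10 chromosome 19, Scd2 at 44293674 to 44306864 and Scd1 at 44394455 to 44407879. Scd2 had 739 CPM in MCC, 369 in iPSC, 1726 in MEF, 37.3 in PB and 77.8 in BM. Scd1 had 179 CPM in MCC, 96.1 in iPSC, 454 in MEF, 342 in PB and 74.4 in BM. Scd1 was thus high in PB, where Scd2 was at its lowest. Per length of exon Scd2 was 3.70-fold (3.61 to 3.79) above Scd1 in MCC, 3.43-fold (3.33 to 3.54) in iPSC and 3.40-fold (3.35 to 3.46) in MEF. In PB the order was turned, with Scd1 10.2-fold (9.62 to 10.9) above Scd2, and in BM they were close, at 1.07-fold (1.02 to 1.12). Of the 50-base words of these genes, 4.56% (Scd1) and 3.97% (Scd2) occur in transcripts of other genes, including each other.

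**Figure D4:**
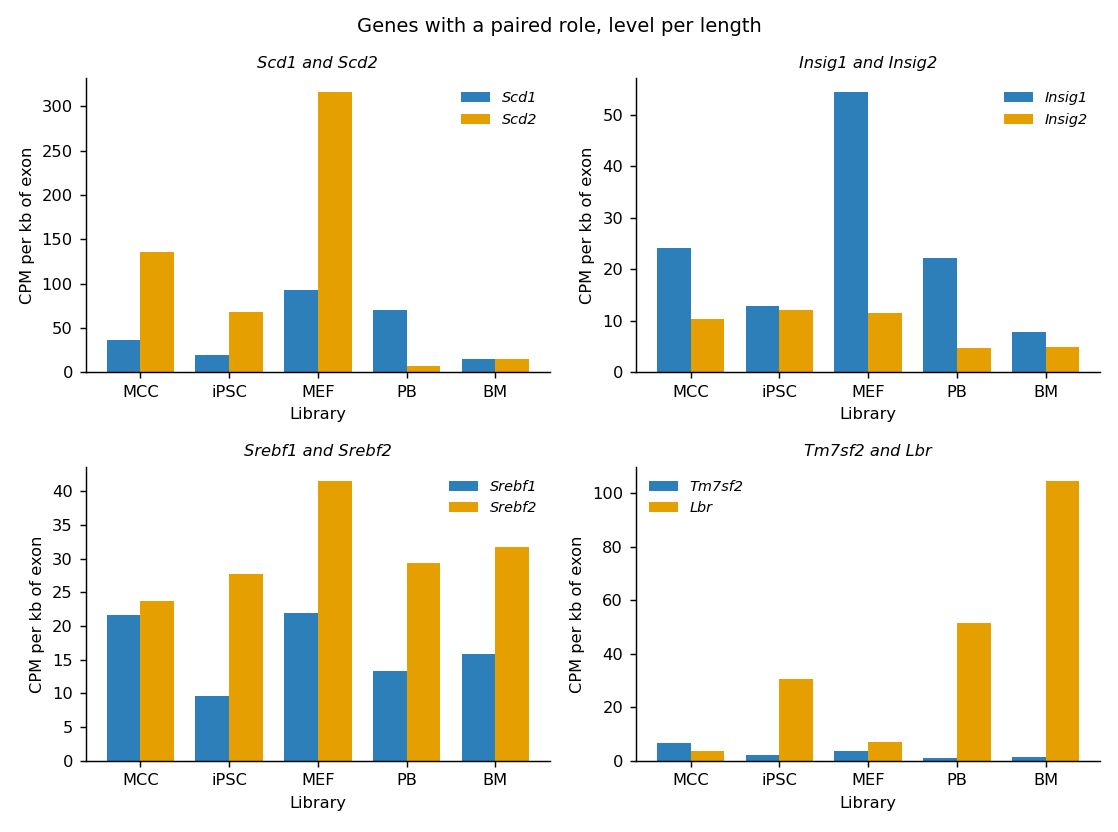
CPM per kb of exon for 4 pairs of genes with a paired role, 2 bars per library, each from 1 library without error bars. Scd1 exceeds Scd2 by 10.2-fold in PB but is the lower of the pair in MCC, iPSC and MEF, and Tm7sf2 exceeds Lbr in MCC alone.

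The comparison of MCC with MEF sets MCC against embryonic fibroblasts, the class of cell named in the series title. A gene is called at a ratio of 2-fold or more when the higher of its levels reaches 5 CPM, and it counts as tested or measured when that level is reached. The 4 comparisons share the MCC library and are not independent of each other. Of the 28 members 15 were at least 2-fold lower in MCC and 0 higher, against 10.1% lower and 15.1% higher among all 11720 genes tested. The median log2 ratio of the members was -1.01, against -0.01 for all genes. Of the members 23 of 28 lay below 0, against 50.6% of all genes. The differences were modest in size, since 0 members passed 4-fold, against 8.05% of all genes higher and 2.71% lower. By role, 4 of 7 mevalonate enzymes, 7 of 11 sterol enzymes, 1 of 5 SREBP system genes and 3 of 4 fatty acid enzymes were lower. Among the sterol enzymes Cyp51 was 3.11-fold (3.01 to 3.21) lower, Lss 3.002-fold (2.86 to 3.15) lower and Fdft1 2.82-fold (2.71 to 2.93) lower. Insig1, the SREBP system gene among those called, was 2.26-fold (2.17 to 2.36) lower. Fasn missed the threshold at 1.99-fold (1.94 to 2.03) lower and passed it with DESeq2 size factors or total counts. On the other side of 1 stood Tm7sf2 at 1.75-fold (1.59 to 1.92) higher and Ebp at 1.53-fold (1.44 to 1.62) higher, neither of which passed 2-fold. Scap was 1.16-fold and Pmvk 1.09-fold higher, and Dhcr7 was 1.02-fold higher but just lower with total counts. Without the 7 members that share at least 10% of their words with other genes or of their exon bases with opposite-strand genes (Acat2, Hmgcs1, Idi1, Fdps, Fdft1, Scap and Acaca), 9 of the remaining members were lower. Fdft1 shares 18.3% of its exon bases with Ctsb on the opposite strand, whose level was 5942 in MCC against 790.3 in MEF (CPM), and the part of Ctsb reads in the Fdft1 count was not tested. The 9 macrophage genes summed to 13730 CPM in MCC and 4.86 CPM in MEF, where 1 of them was at 0, and their part in these differences was not tested. The 8 proliferation genes summed to 469.6 CPM in MCC and 822 CPM in MEF, lower in MCC as the enzymes were, and their part was likewise not tested.

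Against bone marrow 15 of the 18 cholesterol enzymes were called higher in MCC. Over all 28 members 20 passed 2-fold on the higher side and 0 on the lower, against 29.3% higher and 24.8% lower among 12427 genes. The median log2 ratio was 1.58, against 0.11 for all genes, and 9 members were at least 4-fold higher and 0 lower, against 15.6% and 13.5% of all genes. All 7 mevalonate enzymes, 8 of 11 sterol enzymes, 2 of 5 SREBP system genes and 3 of 4 fatty acid enzymes were called. Scd2 was 9.50-fold (9.16 to 9.86) higher, Cyp51 6.94-fold (6.43 to 7.51), and Hmgcs1 5.43-fold (5.07 to 5.82). Srebf2 was 1.34-fold (1.30 to 1.38) lower in MCC, the one member below 1, where 47.2% of all genes lay. Over the 5 libraries the proliferation genes summed to 469.6 CPM in MCC, 2147 in iPSC, 822 in MEF, 164 in PB and 3077 in BM. MCC, MEF and PB stood in the same order for this sum as for the summed enzymes, with MEF highest and PB lowest of the 3, while iPSC and BM stood above MEF for proliferation and below it for the enzymes. The 6 neutrophil genes summed to 4.58 CPM in MCC and 58598 CPM in BM. The part of either list in these differences was not tested. With total counts Insig2 was no longer called against BM.

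Against blood the median distance was greater than against BM. The summed level of all 28 members was not further apart, at 2.41-fold in MCC over PB and 2.66-fold over BM. Here too 20 of the 28 members passed 2-fold on the higher side in MCC and 0 on the lower, against 38.6% higher and 26% lower among 12545 genes. The median log2 ratio was 2.06, against 0.38 for all genes, and 14 members were at least 4-fold higher and 0 lower, against 21.5% and 15.4% of all genes. Of the 18 cholesterol enzymes 17 were called, the exception being Sc5d at 1.07-fold (0.999 to 1.15). Scd2 was 19.8-fold (18.7 to 21.05) higher, Mvk 11.8-fold (10.005 to 14.1) and Sqle 11.6-fold (10.1 to 13.3). Below 1 were Scd1, 1.91-fold (1.86 to 1.97) lower in MCC, and Srebf2, 1.24-fold (1.199 to 1.28) lower. Among all genes 42.6% lay below 1. With DESeq2 size factors or total counts Scd1 passed 2-fold on the lower side, and Sc5d and Insig1 were lower in MCC. Pmvk was no longer called under either scaling, nor were Insig2 and Fasn with DESeq2 size factors. Haemoglobin genes took 0.00102% of the reads in MCC and 9.04% in PB, and removing them with other abundant genes before scaling changed 0 member calls.

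Against iPSC most members were higher in MCC by smaller folds, 23 of 28 lying above 0 on the log2 scale and 5 below. Among all genes tested 54.2% lay above 0. MCC was 2-fold or more above iPSC for 10 of the 28 members and below it for 0, against 24.3% higher and 19.2% lower among 12442 genes. At 4-fold 0 members passed, against 11.3% of all genes higher and 9.77% lower. The median log2 ratio was 0.79, against 0.14 for all genes. Mvd was 3.41-fold (3.22 to 3.61) higher, Nsdhl 3.18-fold (2.96 to 3.42) and Tm7sf2 3.13-fold (2.81 to 3.48). Below 1 stood Fasn, 1.46-fold (1.42 to 1.49) lower in MCC, with Acaca, Insig2, Srebf2 and Fdft1 between 1.14-fold and 1.21-fold lower. Total counts in place of TMM moved every log2 ratio here by -0.39 and left 5 of the 10 calls. Those lost were Pmvk, Cyp51, Ebp, Srebf1 and Scd2, the last also with DESeq2 size factors. The same change put Hmgcs1, Idi1, Hsd17b7 and Stard4 on the lower side.

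**Figure D5:**
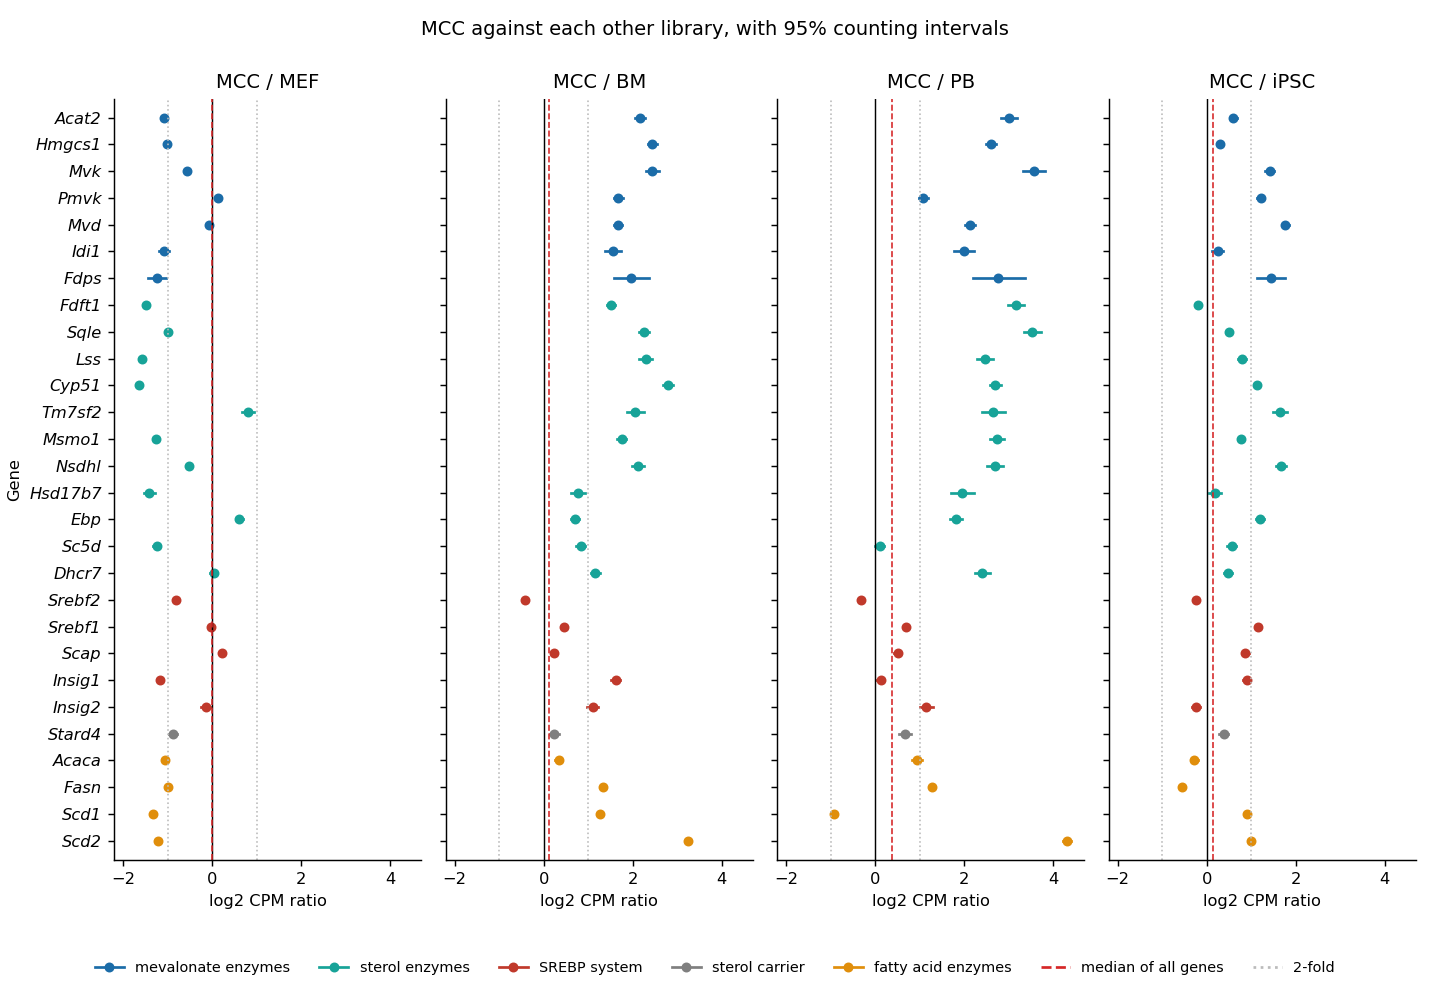
log2 CPM ratio of MCC over each of the other 4 libraries for the 28 genes, with lines for 95% counting intervals, dotted lines at 2-fold and a dashed red line at the median of all genes tested. Most points lie left of 0 against MEF, where the member median is -1.01, and right of 0 against BM and PB, where it is 1.58 and 2.06.

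Values of iPSC over MEF and of PB over BM complete the order of the libraries. For these comparisons the share of all genes and the ratios under other scalings were not computed. TMM factors were 1.19 for iPSC and 0.930 for MEF, so scaling by total counts would raise iPSC relative to MEF. Cyp51 was 6.85-fold (6.59 to 7.13) lower in iPSC than in MEF, Fdps 6.41-fold (5.29 to 7.81) and Lss 5.21-fold (4.93 to 5.50) lower, and Insig2 was the one member not lower, at 1.06-fold (0.997 to 1.13). Between the native libraries, Scd1 was 4.602-fold (4.42 to 4.79) and Insig1 2.82-fold (2.61 to 3.05) higher in PB than in BM. Fdft1 was 3.15-fold (2.76 to 3.61), Sqle 2.43-fold (2.09 to 2.84) and Dhcr7 2.37-fold (2.08 to 2.71) lower in PB.

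Other genes of sterol sensing and fatty acid synthesis were read from lists of related genes. Their counts stand against the shares of all genes called, which were 15.1% higher and 10.1% lower against MEF, 29.3% and 24.8% against BM, 38.6% and 26% against PB, and 24.3% and 19.2% against iPSC. Of 13 genes of SREBP processing and sterol-regulated degradation, 0 were called higher and 1 lower in MCC against MEF. On the same list 2 were higher and 1 lower against BM, 4 and 1 against PB, and 1 and 0 against iPSC. The lower gene against MEF was Sec23a, a coat protein of the vesicles that carry SCAP and SREBP, at 88.4 CPM in MCC, 57.7 in iPSC, 178 in MEF, 21.4 in PB and 26.96 in BM, the same order of libraries as the enzymes. The gene furthest on the higher side against MEF was Aup1, with a level of 148 in MCC against 96.98 in MEF (CPM), short of 2-fold. Rnf145, a ubiquitin ligase gene, was 3.02-fold (2.89 to 3.15) lower in MCC than in PB. Of 15 measured genes of other fatty acid synthesis and desaturation, 1 was higher and 5 lower in MCC than in MEF. Elovl6, a fatty acid elongase, was 2.77-fold (2.61 to 2.96) lower, and Acsl1, a fatty acid ligase, 2.09-fold (1.83 to 2.39) higher. Against BM 6 of 16 were higher and 2 lower, against PB 7 of 15 and 2, and against iPSC 6 of 17 and 4. Me1, malic enzyme, which supplies NADPH, was at 52.4 CPM in MCC, 67.3 in iPSC, 124 in MEF, 0.100 (3 reads) in PB and 0.245 in BM. The 3 libraries with high Me1 were those with high cholesterol enzymes. The 6 adipocyte genes summed to 47.5 CPM in MCC, 1.30 in iPSC, 12.4 in MEF, 20.3 in PB and 24.2 in BM, so that their sum was highest in MCC. Of the 6, 2 reached 5 CPM in MCC, 0 in iPSC, 2 in MEF, 2 in PB and 3 in BM. Fabp4 had 22.8 CPM in MCC, 0.153 in iPSC, 7.33 in MEF, 9.14 in PB and 9.40 in BM. Pparg, which macrophages also express, had 22.3 CPM in MCC, 0.976 in iPSC, 5.02 in MEF, 10.8 in PB and 6.14 in BM. The defining gene Adipoq had 0.764 CPM in MCC, 0.0383 in iPSC, 0.0462 in MEF, 0.201 in PB and 8.54 in BM. BM was thus its highest library, unlike for the sum. Plin1, also a defining gene, had 1.204 CPM in MCC, 0.0191 in iPSC, 0.0462 in MEF, 0.0670 in PB and 0.0245 in BM. In MCC 0 of the 6 adipocyte genes were at 0, against 2 of 6 in MEF. Their part in the differences above was not tested.

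Genes of the LXR sterol receptors and of sterol export were mixed. Against MEF, 5 of 9 measured were called higher in MCC and 0 lower, beside 15.1% higher and 10.1% lower among all genes, and their median log2 ratio was 1.31. Abca1, the cholesterol exporter, was at 299.6 CPM in MCC, 9.13 in iPSC, 17.6 in MEF, 97.3 in PB and 26.5 in BM. Cyp27a1, which makes an oxysterol, was at 39.4 CPM in MCC, 3.73 in iPSC, 0.578 in MEF, 37.96 in PB and 18.6 in BM, 68.1-fold (46.0 to 106) higher in MCC than in MEF. Nr1h3, which encodes LXR-alpha and was named with its values already known, had 7.08 CPM in MCC, 1.24 in iPSC, 1.06 in MEF, 2.54 in PB and 5.33 in BM. Abca1 and Nr1h3 were highest in MCC, and Cyp27a1 was about level in MCC and PB. Cyp7b1 was also highest in MCC, with 16.4 CPM in MCC, 0.880 in iPSC, 6.61 in MEF, 0.703 in PB and 0.295 in BM. The remaining genes of the list were highest elsewhere. Abcg1, another sterol exporter, had 29.5 CPM in MCC, 4.52 in iPSC, 7.61 in MEF, 93.9 in PB and 35.2 in BM. Abcg4, a related transporter, had 0.393 CPM in MCC, 0.765 in iPSC, 0.0694 in MEF, 0.100 in PB and 78.7 in BM. Ch25h, which makes an oxysterol, was 1.66-fold (1.36 to 2.04) lower in MCC than in MEF. Against BM 3 of 9 were higher and 1 lower, beside 29.3% and 24.8% of all genes, with a median log2 ratio of -0.26. Against PB 4 of 8 were higher and 1 lower, beside 38.6% and 26%, with a median of 0.74, and against iPSC 6 of 8 and 0, beside 24.3% and 19.2%, with a median of 2.61.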

How the data were processed

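PolyA RNA from Trizol extracts was sequenced per the labels' protocols. The deposited values are raw read counts per gene symbol, and the submitters' processing notes name STAR, featureCounts and mm10. Versions, annotation and strand setting are not stated there.

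CPM used TMM library sizes (edgeR 4.0.16, R 4.3.3). Ratios, exact 95% intervals (Clopper-Pearson, conditional binomial) and figures were made in Python 3.11.15, with scipy 1.17.1. With 1 library per group no test was run. Counts under 3 were set to 3 in ratios. Reads have no molecular identifiers that the labels mention, so intervals cover counting error only. Exon lengths, coordinates, overlaps and shared 50-base words came from GENCODE M21 (mm10). Lengths sum all exons of a gene, whichever isoform is used. The steps were checked on simulated counts.

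Alternatives were DESeq2 1.42.0 size factors, total counts, TMM without abundant genes, no minimum level, 20 CPM, 4-fold, the counting bound, means, all members and enzymes alone. Leaving out members that share sequence, or PB, was chosen after seeing the data. Members, the 6 related lists and the marker lists were chosen with earlier results of these data known. All members are named, and from each related list the genes with the largest and smallest ratio per comparison could be, except an item that is not reported here.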

Additional observations from a re-analysis of the deposited data

How the results depend on the processing

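Of 116 alternatives to the counts and medians, 103 stayed, 13 moved and 0 reversed. An alternative stayed when within 1.5 times the count or within counting error of the median. Only a median could be labelled reversed. Some of the 103 could not move. Because all 28 members were measured in each comparison, no minimum level and all members repeated the reported value. A count of 0 also had to stay 0 at 4-fold or with the counting bound. At 4-fold, 0 members were lower in MCC than in MEF, 9 higher than in BM and 0 higher than in iPSC. Leaving out the 7 members that share sequence or opposite-strand exons gave 9 lower than in MEF, with medians of -0.89 against MEF and 0.90 against iPSC. Tm7sf2, with 12.1% of its exon bases shared on the same strand, was kept. The mean against MEF was -0.75. For cholesterol enzymes alone the median was 1.86 against BM and 2.63 against PB. Scaling by DESeq2 size factors or by total counts put 1 member, Scd1, at least 2-fold lower in MCC than in PB. Total counts gave 5 members higher than in iPSC and a median of 0.39. The causes of these moves were not tested beyond the construction of each alternative.

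Scaling moved all log2 ratios of a comparison alike. Total counts moved them by -0.39 against iPSC, -0.14 against BM and -0.13 against PB, and DESeq2 size factors by -0.28 against PB. Total counts also put Dhcr7 on the lower side against MEF, and both alternatives took Fasn past 2-fold there. The counts of members highest in each library moved by at most 1 under the other scalings, where total counts put Dhcr7 highest in MEF. Leaving out PB could not move these counts, since 0 members were highest in PB. No paired analysis was possible because each group has 1 library. Depth limits Fdps most, with 29 reads in PB. A difference between cultures or animals cannot be judged from these data.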

Other observations

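Genes of sterol uptake, storage and lysosomal transfer were mixed. Of 13 measured, 2 were called higher and 1 lower in MCC against MEF, 5 and 1 against BM, 5 and 2 against PB, and 5 and 0 against iPSC. Lipa, the lysosomal lipase that frees cholesterol from its esters, had 169 CPM in MCC, 29.98 in iPSC, 62.5 in MEF, 79.6 in PB and 72.1 in BM, so that MCC was the highest library. Vldlr, a lipoprotein receptor, had 21.1 CPM in MCC, 9.60 in iPSC, 43.4 in MEF, 0.0335 (1 read) in PB and 1.10 in BM, an order like that of the enzymes. Gramd1a, which encodes a protein that moves cholesterol from the plasma membrane to the endoplasmic reticulum, had 99.8 CPM in MCC, 62.7 in iPSC, 71.7 in MEF, 327 in PB and 130.1 in BM. The shares of all genes called higher and lower were 15.1% and 10.1% against MEF, 29.3% and 24.8% against BM, 38.6% and 26% against PB, and 24.3% and 19.2% against iPSC.

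The branches that draw on the mevalonate arm were read in the same way. Of 12 genes of protein prenylation, dolichol, ubiquinone and tRNA modification, 0 were higher and 0 lower in MCC than in MEF. Against BM 2 were higher and 0 lower, against PB 3 and 1, and against iPSC 1 and 1. Among all genes 15.1% were called higher and 10.1% lower against MEF, and 29.3% and 24.8% against BM. These shares were 38.6% and 26% against PB, and 24.3% and 19.2% against iPSC. Fnta, a subunit of the farnesyl and geranylgeranyl transferases, had 124 CPM in MCC, 80.8 in iPSC, 75.6 in MEF, 25.3 in PB and 55.2 in BM. Of 4 measured genes in a list of further sterol and desaturase genes, 0 were higher and 1 lower in MCC than in MEF, 3 and 1 against BM and against PB, and 1 and 1 against iPSC. The lower gene against MEF was Fads3, of the fatty acid desaturase cluster, at 60.6 CPM in MCC, 37.5 in iPSC, 292 in MEF, 0.335 in PB and 14.6 in BM.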
